A study of Mus musculus with 4 samples.

Results

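The genes of the cytosolic ribosomal proteins were examined in translating ribosome affinity purification (TRAP) libraries of mouse cerebral cortex. Members were chosen by symbol: names starting Rpl or Rps followed by a digit, with Rplp0, Rplp1, Rplp2 and Rpsa. Kinases named Rps6k (10 names) and names of pseudogenes (5 names) were left out, and a count of at least 10 in at least 2 libraries was required. Of 32531 gene names in each library, 102 matched the pattern and 82 were kept. These were 48 Rpl and 34 Rps symbols. The minimum was not reached by Rpl10l, Rpl39l and Rpl3l, which are copies of Rpl10, Rpl39 and Rpl3, nor by Rpl24 and Rpl26, which encode proteins of the large subunit.

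By textbook role, 44 of the 82 encoded a protein of the large subunit and 31 a protein of the small subunit. The other 7 also met the naming rule. Rpl7l1, Rpl22l1, Rpl36al and Rps27l encode proteins like Rpl7, Rpl22, Rpl36a and Rps27. Rps4l and Rpl37rt are annotated as transcribed processed pseudogenes, that is, copies of an mRNA inserted back into the genome. Rps19bp1 encodes a protein that binds Rps19 and is not a ribosomal protein.

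The mice were adults of the Cbln1-TRAP line NIDA030, which carries a fusion of EGFP with the large subunit protein Rpl10a. The name of the line ties the fusion to Cbln1, the gene of a synaptic organiser. Polysomes that held the fusion were captured from homogenised cortex with antibodies against EGFP, and their RNA gave the immunopurified (IP) libraries. The input libraries were of the same genotype, age and tissue and held total RNA of cortex, so every library came from animals that carry the transgene. Each group had 2 libraries, numbered 2 and 4. Whether each library came from its own animal or from pooled animals is not stated in the labels. The p-values thus rest on the spread of these 4 libraries alone, and that spread may be technical.

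Each ribosome joins a small subunit, which decodes the mRNA, to a large subunit, which forms the peptide bonds. The proteins are mostly needed in equal numbers, and their mRNAs are short and usually abundant. Most of these mRNAs begin with a run of pyrimidines at the 5′ end, the TOP motif, through which the kinase complex mTORC1 and the RNA-binding protein Larp1 control their loading onto ribosomes. In neurons, some of these mRNAs are also found in axons and dendrites. Ribosomal protein mRNAs have been copied into the genome many times as processed pseudogenes, and a read that aligns equally well to a gene and its copy cannot be placed.

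Between 39750468 and 47567384 counts were assigned to genes per library, and 16600 genes were tested. Cbln1, the gene that names the line, was 8.19-fold higher in IP, with 99.3 and 68.7 CPM (normalised read counts, scaled to a common library size) in IP against 11.9 and 8.55 in input. Summed markers of neurons in general were 33800 and 31940 CPM in IP against 14030 and 14480 in input, and 7 of 8 passed as higher. Most of each sum was Snap25, with 27050 and 25460 CPM in IP and 10530 and 10910 in input. Of the glutamatergic markers 5 of 5 were higher, while of 6 GABAergic markers 0 were higher and 1 was lower. Markers of oligodendrocytes summed to 1233 and 1261 CPM in IP against 1599 and 1506 in input, with 4 of 6 lower and 2 higher. Astrocyte markers summed to 974.9 and 1072 CPM against 720.0 and 711.5, with 3 of 6 higher and 1 lower. A single gene made up most of each astrocyte sum. Erythroid markers summed to 1.42 and 3.17 CPM against 7.75 and 8.57. Whether these cell types had a part in the results below was not tested. Both IP libraries are labelled lane 1 and both input libraries lane 2, and the effects of lane and group cannot be told apart. In input, which is bulk tissue, fewer cells of a type and less RNA per cell cannot be told apart.

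Input 2 stood apart from input 4 in the genes examined here. It was above input 4 in 72 of the 82 members, by a median log2 ratio of 0.30, while the median over all genes tested was 0.0017. Other genes with short transcripts were shifted the same way, by less. The median was 0.20 over the 409 genes of at most 600 bases (281 above 0) and 0.14 over the 914 of 600 to 1000 bases. It was 0.12 over 76 mitochondrial ribosomal protein genes and -0.11 over the 661 genes above 8000 bases. Between IP 2 and IP 4 the median log2 ratio of the members was 0.16. Results that rest on input 2 are therefore also given without it. That fit leaves 1 input library, which is assumed to vary as the other group does.

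**Figure D1:**
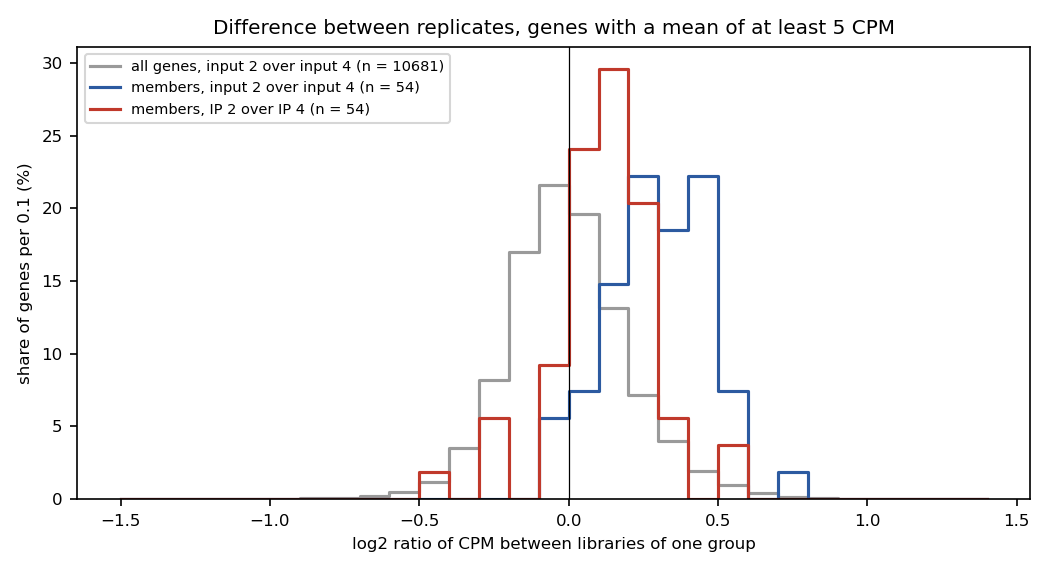
Share of genes (vertical axis, percent per 0.1 step) at each log2 ratio of CPM between the libraries of 1 group (horizontal axis), for genes averaging at least 5 CPM. The 54 members (blue) lie to the right of the 10681 genes of that level in all (grey) between the inputs, with 51 of the 54 above 0, and the same members lie closer to 0 between the IP libraries (red).

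The members took only a small share of the counts. In IP it was 0.178% of gene counts for library 2 (exact binomial 95% interval 0.177 to 0.179%) and 0.162% for library 4 (0.160 to 0.163%). In input it was 0.239% (0.237 to 0.240%) and 0.198% (0.197 to 0.200%). The intervals cover counting error only. As shares of raw gene counts, both IP libraries lay below both inputs, at 0.170% ± 0.012 (SD, n = 2) against 0.218% ± 0.028. This order depends on the scaling. IP 2 held 73556 member counts at a normalised library size of 37996659, and input 4 held 78828 at 43275918. Relative to the normalised sizes, which CPM uses, IP 2 lies above input 4 and the groups overlap. A comparison of 2 libraries with 2 cannot give an exact permutation p under 0.333.

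Levels, given as CPM per kilobase of transcript, covered a wide range for proteins mostly needed in equal numbers. The median over the 82 members was 14.6 CPM per kilobase, the lowest 0.289 (Rpl5) and the highest 260 (Rpl4). The SD of the log2 level between members was 2.02. Large subunit proteins had a median of 16.9 and small subunit proteins of 15.2. A level of at least 50 was reached by 14 members, and 25 were below 5.

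Rpl4, which lines the exit tunnel for the growing peptide, gave 16618 and 17924 counts in the IP libraries and 17620 and 15662 in the inputs. It alone made up 22.6% and 23.3% of the members' counts in IP and 17.9% and 19.9% in input. Other high levels were those of Rps15a with 167 CPM per kilobase, Rps15 with 156, Rpl8 with 113 and Rpl41 with 101. At the other end, Rpl5, which brings the 5S ribosomal RNA to the large subunit, gave only 15, 19, 41 and 27 counts. Its partner in that particle, Rpl11, gave 98, 99, 106 and 83.

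The counted level went with how much of a transcript has copies elsewhere. Each member's transcript was divided into all windows of 50 bases, and exact copies were searched in the annotated transcripts of every other gene, pseudogenes included. A median of 58.7% of a member's windows had a copy, with a range from 0 to 98.7%, and the median number of pseudogenes holding one was 8. The highest number was 120, for Rpl7a. Only 5 members had under 10% of windows copied, and Rps19bp1 was among those with none. Rpl5 had 93.8% copied. Reads without a unique alignment were 37.0% and 38% of records in IP and 32.1% and 30.7% in input, and such reads entered no gene's count.

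Among the 75 core subunit genes, the median level was 71.5 CPM per kilobase in the 8 with under 25% of windows copied. It was 27.7 in the 18 with 25 to 50%, 15.2 in the 23 with 50 to 75%, and 5.16 in the 26 with at least 75%. Over all 82 members Spearman's rho between level and copied share was -0.465 and Pearson's r with the log2 level was -0.454. The points share libraries and pseudogene families, and no p-value is given. Per kilobase of windows without a copy, the SD of the log2 level was 1.83, against 2.02 per kilobase of transcript. Rps27 had 4 windows of 50 bases without a copy, and Rps12 had 44. The levels are therefore of uniquely placed reads and are uncertain as levels of the mRNA, and Rpl24 and Rpl26, below the minimum, had 81.7% and 71.3% of windows copied.

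**Figure D2:**
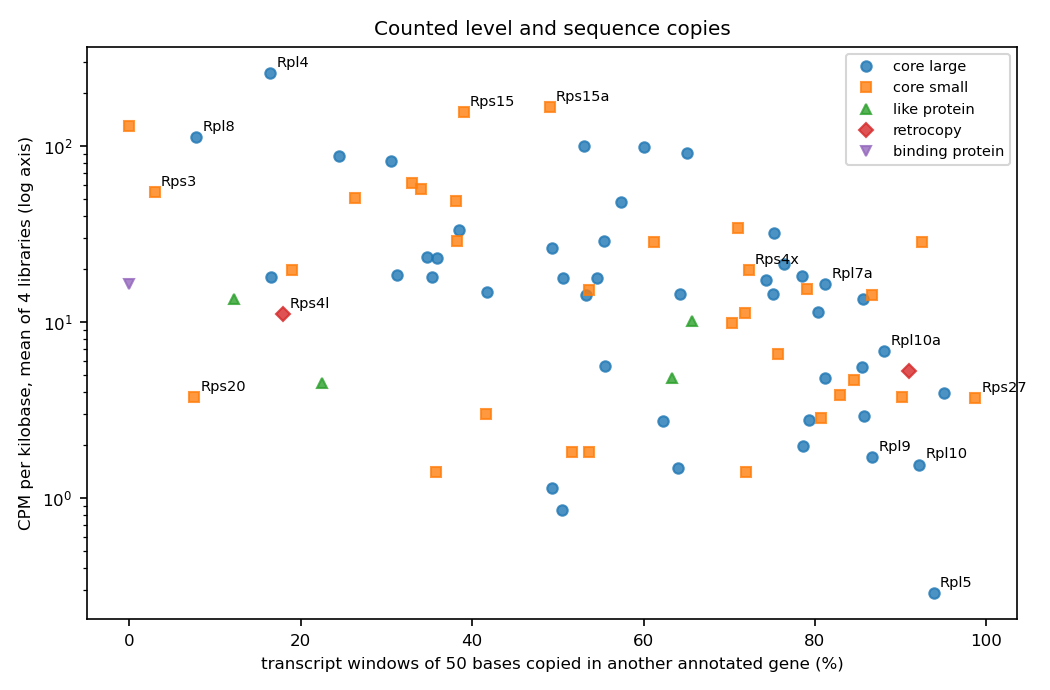
Level of each of the 82 members (vertical log axis, CPM per kilobase, mean of 4 libraries) against the share of its 50-base windows with an exact copy in another annotated gene (horizontal axis, percent). Each point is 1 gene, with Rpl4 and Rpl8 at the upper left and Rpl5, Rpl9 and Rpl10 at the lower right.

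Between IP and input, 4 members were higher in IP, 21 were lower and 57 did not pass an adjusted p of 0.05 in edgeR's quasi-likelihood test. Over all 16600 genes tested, 23.4% were called higher in IP and 22.4% lower. The 21 lower members are 25.6% of 82, which is near that background, while the 4 higher members are 4.88%, far below it. The median log2 fold change of the members was -0.23, against -0.035 over all genes. Both IP libraries lay below both inputs for 35 of the 82 members, above them for 12, and the groups overlapped for 35. Of the 16600 genes tested, 6268 (37.8%) lay below, 5854 lay above and 4478 overlapped. The members thus lay above less often than all genes and overlapped more often, while their share below was nearer to that of all genes.

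That split leaned on a library and on a correction. Without input 2, 6 members were called lower (7.32%) and 5 higher (6.10%), and the median was -0.018. Over all genes that fit called 15.7% lower and 19.5% higher, fewer than with all libraries. All 21 members called lower with all libraries kept a negative fold change. When GC content and transcript length were corrected for, 4 members were called lower (4.88%) and 18 higher (22.0%). Over all genes that fit called 16.9% lower and 30.01% higher, so both shares of the members were below the background. The members' median turned to 0.25, against 0.093 for all genes. With that correction taken from the longest instead of the shortest principal transcript of each gene, the counts were 7 lower and 13 higher and the median 0.11, against 0.097 for all genes. Scaling by library size alone moved the median of all genes to -0.29 and that of the members to -0.49, a difference of -0.20 between them as with the usual scaling.

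**Figure D3:**
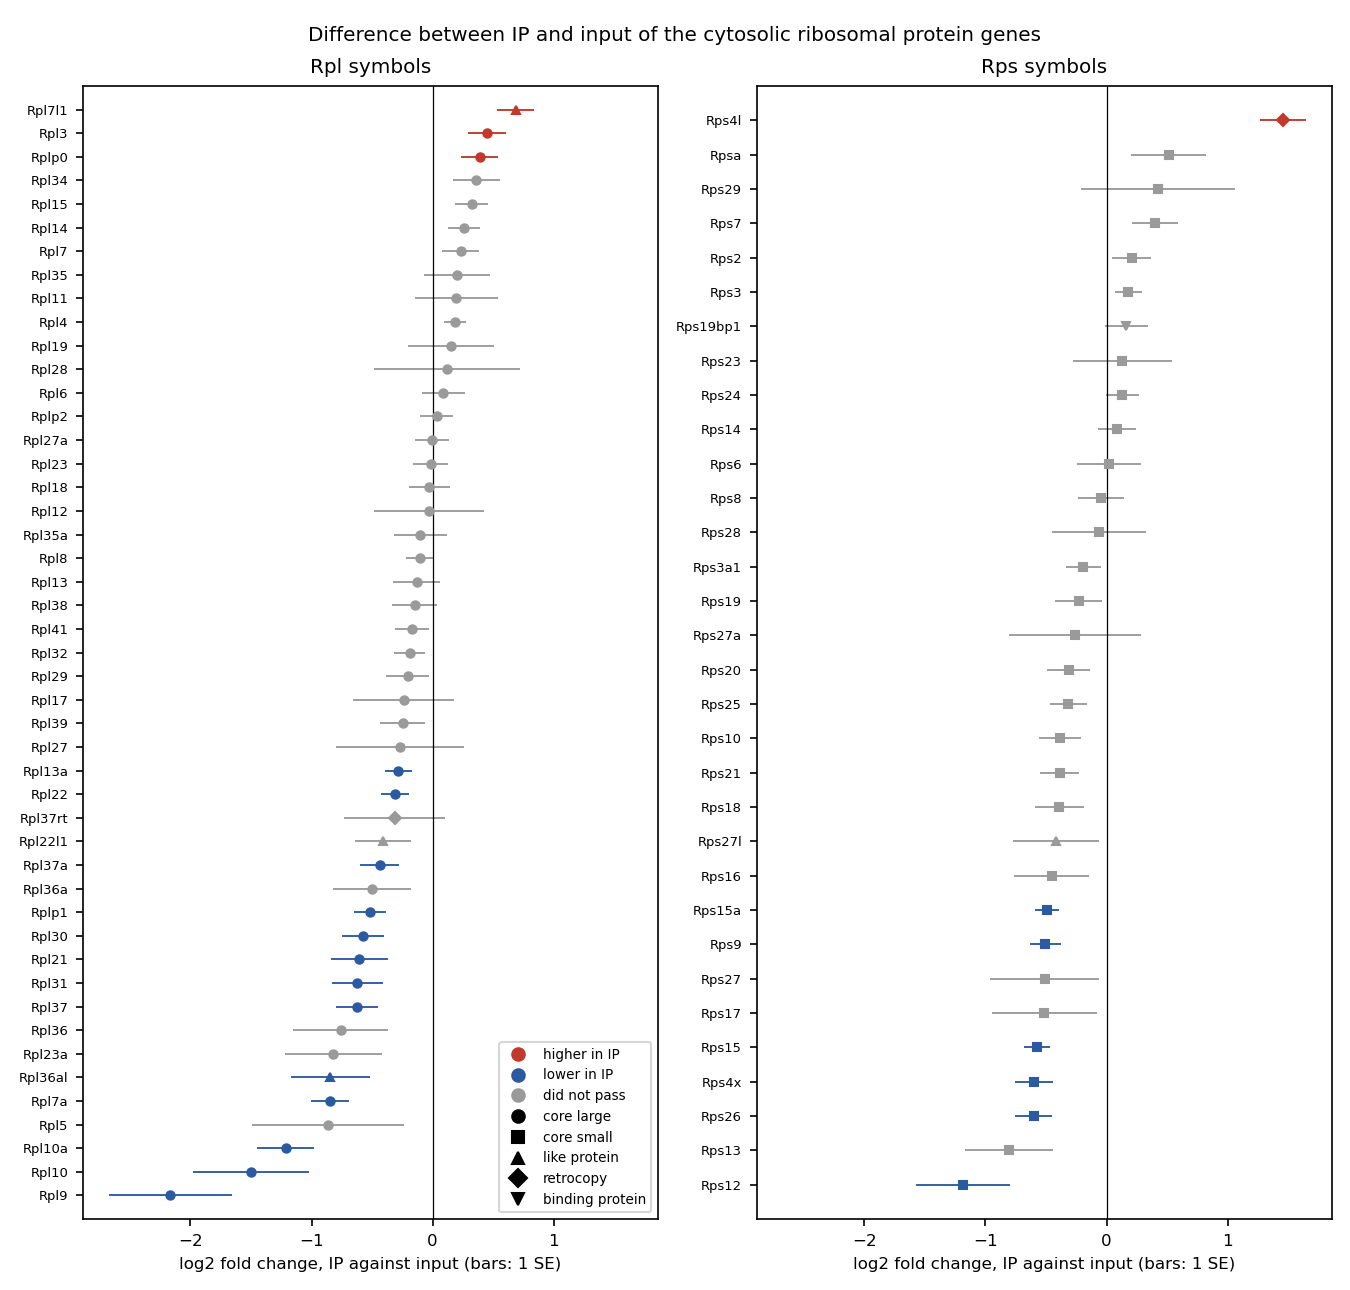
Log2 fold change of IP against input (horizontal axis, bars are 1 standard error) for 79 of the 82 members, ordered by value, with Rpl symbols in the left panel and Rps symbols in the right. Colour gives the call and marker shape the class. The 4 members called higher are Rps4l, Rpl7l1, Rpl3 and Rplp0, and most points lie between -1 and 0.5.

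The tagged protein's own gene was lower in IP. Rpl10a (chromosome 17, 28328471 to 28331033, + strand, GRCm38) encodes a protein of the L1 stalk, the mobile arm of the large subunit beside the exit site of transfer RNA. It gave 118 and 126 counts in IP and 310 and 309 in input, or 3.11 and 2.92 CPM against 6.82 and 7.14. The groups did not overlap, and the replicates lay close together within each. The log2 fold change was -1.21 ± 0.24 (SE, adjusted p = 0.000358), and under the 14 other settings it ranged from -1.47 to -0.90 and passed in every one. Counts of the transgene's Rpl10a sequence and of the gene itself cannot be told apart here. Of its windows 88.1% had a copy elsewhere, 5 pseudogenes held one, and an exon overlaps another gene on the opposite strand, which makes its counts uncertain where strand was not used.

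Among the other large subunit proteins, Rpl7a also passed as lower under every setting. Rpl7a (chromosome 2, 26910764 to 26913318, + strand), had 11.8 and 9.76 CPM in IP and 19.6 and 19.2 in input. Its log2 fold change was -0.85 ± 0.16 (adjusted p = 0.000244), with a range over the settings from -1.10 to -0.59. Of its windows 81.2% had a copy elsewhere.

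The largest falls were in genes with few counts. Rpl9, at the base of the stalk that binds elongation factors, gave 18 and 16 counts in IP and 99 and 70 in input, a log2 fold change of -2.17 ± 0.51 (adjusted p = 0.00177). Without input 2 its adjusted p was 0.0501. Rpl10, which is among the last proteins to join the large subunit, gave 28 and 24 counts against 97 and 66, a log2 fold change of -1.5 ± 0.48 (adjusted p = 0.0151). It did not pass without input 2 (adjusted p = 0.202) or with the GC and length correction (adjusted p = 0.0573). Rpl9 had 86.7% and Rpl10 92.1% of windows copied.

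The other large subunit genes called lower were Rpl13a, Rpl21, Rpl22, Rpl30, Rpl31, Rpl37, Rpl37a and Rplp1, with log2 fold changes from -0.62 to -0.28. All 8 lost the call without input 2 and with the GC and length correction. Without input 2 the fold change of Rpl21 (-0.61) was about that with all libraries and that of Rpl31 was -0.57, while those of Rpl37 (-0.32), Rplp1 (-0.27) and Rpl30 (-0.35) were nearer to 0. Rpl37, for example, had 12.3 and 11.9 CPM in IP against 22.1 and 15.2 in input. Input 4 was nearer to the IP values than input 2 was. Its adjusted p was 0.00669, and 0.240 without input 2. Rpl31, which sits at the mouth of the exit tunnel, had 4.71 and 6.36 CPM in IP against 8.78 and 8.27 in input, a log2 fold change of -0.62 ± 0.21 (adjusted p = 0.0224). Rpl21 had 3.61 and 4.4 CPM against 6.07 and 6.12 (-0.61 ± 0.24, adjusted p = 0.0420), and Rpl30 9.76 and 9.88 against 16.7 and 12.5 (-0.57 ± 0.18, adjusted p = 0.0121). Exons of Rpl30 and of Rpl31 overlap another gene on the opposite strand. Rpl22, an RNA-binding protein at the tunnel exit, had 37.9 and 36.8 CPM against 48.9 and 43.7. Its log2 fold change was -0.31 ± 0.12 (adjusted p = 0.0335). With the GC and length correction it turned to 0.40 and passed as higher in IP (adjusted p = 0.00372).

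Rpl3 and Rplp0 were the large subunit genes called higher. Rpl3, which reaches toward the peptidyl transferase centre, had 22.1 and 20.4 CPM in IP and 17.9 and 13.1 in input, a log2 fold change of 0.45 ± 0.16 (adjusted p = 0.0279). Rplp0 anchors the acidic P proteins of the stalk. It had 22.3 and 23.1 CPM in IP and 19.7 and 15 in input, a log2 fold change of 0.39 ± 0.15 (adjusted p = 0.0420). In both genes IP was above both inputs, and the gap to input 2 was small. Leaving out input 4 ended both calls, as did scaling by library size alone, where the log2 fold changes were 0.19 for Rpl3 and 0.13 for Rplp0. Rpl3 also did not pass without IP 2 (adjusted p = 0.0613). Rplp0 also did not pass with DESeq2 (adjusted p = 0.0590), with a filter of 1 CPM in 2 libraries (adjusted p = 0.0677) or without IP 4 (adjusted p = 0.0838).

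The proteins of the P stalk, which recruits translation factors, had mixed calls, and the differences between them were not tested. Rplp0 was higher, Rplp1 lower with 42.9 and 38.1 CPM in IP against 66.8 and 49.0 in input (log2 fold change -0.52 ± 0.13, adjusted p = 0.00396), and Rplp2 did not pass at 40.0 and 37.5 against 43.5 and 32.2. Rpl12, at the base of the stalk, had 1.68 and 1.11 CPM against 1.80 and 1.04 and did not pass. With the GC and length correction the value of Rplp1 was -0.064 (adjusted p = 0.678), and Rplp2 passed as higher (0.61, adjusted p = 0.000119). Of the 7 proteins at the tunnel exit, Rpl22 and Rpl31 were lower and 5 did not pass. Neither protein of the 5S particle passed, and Rpl5 was too thinly counted for its log2 fold change of -0.87 ± 0.63 to be told from 0.

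The large subunit genes with the highest levels per kilobase did not pass. Rpl4 had 437 and 415 CPM in IP and 388 and 362 in input, a log2 fold change of 0.18 ± 0.088 (adjusted p = 0.0967) that turned to -0.074 when libraries were scaled by size alone. Rpl8, at the heart of the peptidyl transferase centre, had 99.5 and 84.8 CPM against 107 and 91.3, and the groups overlapped (-0.11 ± 0.11, adjusted p = 0.450). Rpl41, the shortest ribosomal protein, had 45 and 37.9 CPM against 54.2 and 39.0, again overlapping (-0.17 ± 0.14, adjusted p = 0.348).

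**Figure D4:**
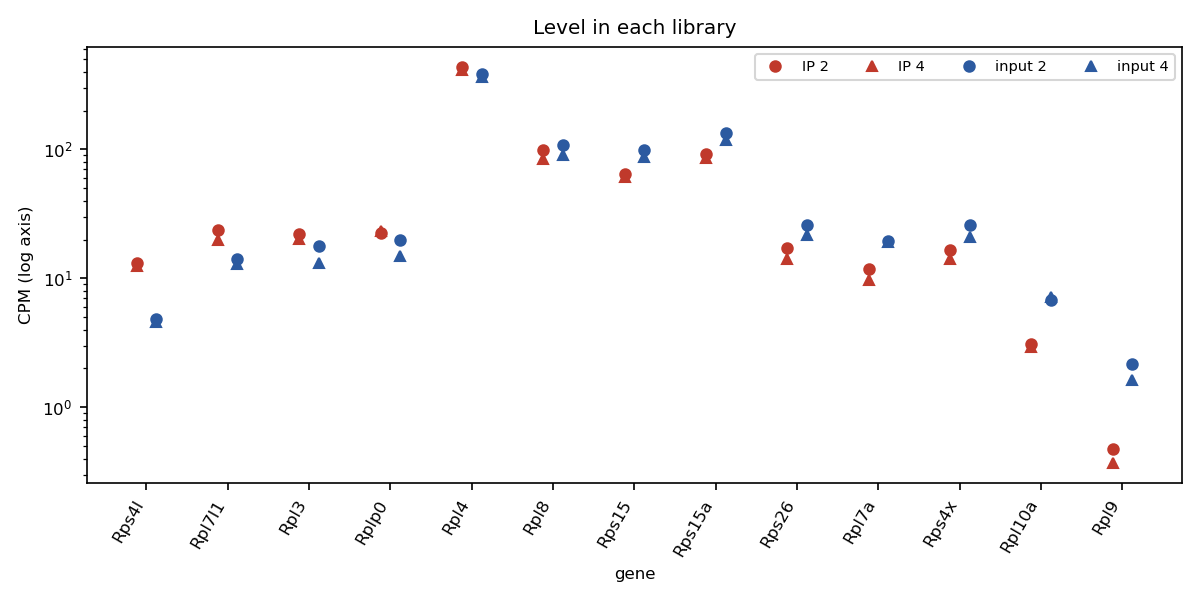
CPM (vertical log axis) of 13 members in each library, with IP in red and input in blue, circles for libraries numbered 2 and triangles for those numbered 4. For Rps4l and Rpl7l1 the IP values lie above the inputs, for Rpl10a and Rpl9 far below them, and for Rpl8 the groups overlap.

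Of the 31 small subunit genes, 7 were lower in IP, none was higher and 24 did not pass. The 7 are 22.58% of them, near the 22.4% of all genes called lower, while 23.4% of all genes were called higher. The number called higher was also 0 at an unadjusted p under 0.05 in edgeR and with DESeq2, and was 3 with the GC and length correction, 5 with the block added to it and 1 without input 2. The lower genes included Rps4x, Rps9, Rps12, Rps15, Rps15a and Rps26. Rps15, near the decoding centre, had 64.7 and 60.6 CPM in IP and 99.2 and 87.3 in input, a log2 fold change of -0.57 ± 0.10 (adjusted p = 0.000195). Rps15a had 92.1 and 86.1 CPM in IP and 133 and 118 in input, a log2 fold change of -0.49 ± 0.10 (adjusted p = 0.000565). Both are among the highest members, their groups were well apart, and both stayed lower without input 2 (-0.47 and -0.40). With the GC and length correction the values were -0.13 (adjusted p = 0.253) for Rps15 and 0.069 (adjusted p = 0.559) for Rps15a.

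Rps26, at the channel through which mRNA leaves the subunit, had 17.3 and 14.1 CPM in IP and 25.8 and 21.7 in input, a log2 fold change of -0.60 ± 0.15 (adjusted p = 0.00324). It passed without input 2 (adjusted p = 0.0456) and not with the GC and length correction. Rps12 had 38 and 55 counts against 131 and 100, a log2 fold change of -1.19 ± 0.39 (adjusted p = 0.0175), and did not pass without input 2 (adjusted p = 0.154). The fall of Rps9 (-0.51 ± 0.13) did not pass without input 2 either.

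At the mRNA exit, the other 5 proteins did not pass. Rpsa, also known as the laminin receptor, had 3.50 and 3.40 CPM against 2.84 and 1.99, with a log2 fold change of 0.51 ± 0.31 (adjusted p = 0.188). At the mRNA entry, Rps3 had 112 and 109 CPM against 109 and 86.7 and Rps2 had 17.5 and 15.4 against 15.7 and 12.8, and neither passed. Rps6, the substrate of the S6 kinases, had 4.61 and 3.73 CPM against 4.56 and 3.65. Its log2 fold change was 0.020 ± 0.26 (adjusted p = 0.959).

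The difference with the lowest adjusted p among the members was that of a processed copy. Rps4l (chromosome 6, 148354656 to 148355598, + strand) is a copy of Rps4x, whose gene lies on the X chromosome (102184941 to 102189394, - strand) and encodes a small subunit protein. Rps4l gave 503 and 541 counts in IP and 219 and 197 in input, or 13.2 and 12.5 CPM against 4.82 and 4.55. Its log2 fold change was 1.46 ± 0.19 (adjusted p = 4.44e-06), and it passed under all 14 other settings with values from 1.20 to 1.65. Rps4x had 16.6 and 14.1 CPM in IP and 25.8 and 20.8 in input, a log2 fold change of -0.60 ± 0.15 (adjusted p = 0.00354). Rps4x did not pass without input 2 (-0.43, adjusted p = 0.0729) or with the GC and length correction (-0.26, adjusted p = 0.134).

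The ratio of Rps4l to Rps4x counts, which needs no scaling between libraries, was 0.796 and 0.887 in IP and 0.187 and 0.219 in input. Both IP ratios lay above both input ratios (two-sided exact permutation p = 0.333, the smallest that 2 against 2 allows). Aligned over 781 of the 789 coding bases of Rps4x, Rps4l was identical at 81.3% and differed at 146 positions. The longest identical run was 35 bases, so no stretch of 50 bases of the Rps4x coding sequence is found in Rps4l. The sequences are shown because they are what lets reads of the copy and of the parent be told apart. Bases 1 to 60, 301 to 360 and 601 to 660, counted from the first coding base of Rps4x and the first transcript base of Rps4l (GENCODE vM21), read as follows, with the bases that differ in capitals.
Rps4x 1 to 60: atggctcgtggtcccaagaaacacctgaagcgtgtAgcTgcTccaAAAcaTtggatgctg
Rps4l 1 to 60: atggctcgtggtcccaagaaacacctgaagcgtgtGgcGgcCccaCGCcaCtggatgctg
Rps4x 301 to 360: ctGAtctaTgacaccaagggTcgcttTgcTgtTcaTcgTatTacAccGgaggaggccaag
Rps4l 301 to 360: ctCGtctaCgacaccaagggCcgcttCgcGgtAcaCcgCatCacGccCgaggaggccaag
Rps4x 601 to 660: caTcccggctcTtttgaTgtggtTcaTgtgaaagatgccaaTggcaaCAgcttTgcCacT
Rps4l 601 to 660: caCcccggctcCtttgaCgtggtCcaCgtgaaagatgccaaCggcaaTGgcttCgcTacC

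The 3 stretches differ at 7, 12 and 11 positions. The GC content of the transcript was 61.3% for Rps4l and 48.5% for Rps4x. Of the windows of Rps4l 18% had a copy, in 1 pseudogene, against 72.3% for Rps4x, in 10.

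Rpl7l1 (chromosome 17, 46773907 to 46782672, - strand) was the other member higher under every setting. It had 23.8 and 19.7 CPM in IP and 14.0 and 13.0 in input, a log2 fold change of 0.69 ± 0.15 (adjusted p = 0.00108), and a range over the settings from 0.43 to 0.85. Rpl7 had 18.9 and 17.1 CPM against 16.3 and 14.4 and did not pass (0.23 ± 0.15, adjusted p = 0.222), and its direction turned to -0.027 with library sizes alone. Rpl7l1 counts were 1.26 and 1.15 times those of Rpl7 in IP and 0.862 and 0.905 times in input.

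Among the copies in the remaining pairs, only Rpl36al passed. Rpl36al, a close copy of Rpl36a, had 1.92 and 1.71 CPM against 3.59 and 2.94 (-0.84 ± 0.33, adjusted p = 0.0422), and lost the call in 8 of 14 settings. Rpl36a had 2.55 and 1.87 against 3.46 and 2.80 (-0.50 ± 0.33, adjusted p = 0.224). Rpl36al counts were 0.753 and 0.914 times those of Rpl36a in IP and 1.04 and 1.05 times in input, so both IP ratios lay below both input ratios (exact permutation p = 0.333, the smallest possible). Rpl22l1, which can stand in for Rpl22, had 5.08 and 4.54 CPM against 7.35 and 5.41 (-0.41 ± 0.23, adjusted p = 0.162), and its counts were 0.134 and 0.123 of those of Rpl22 in IP and 0.150 and 0.124 in input. Rps27l had 2.32 and 1.55 CPM against 2.42 and 2.73, and Rps27 had 0.921 and 1.18 against 1.41 and 1.59. Neither passed, with adjusted p of 0.361 and 0.378. Rpl37rt is 99.7% identical to the coding sequence of Rpl37, so the division of reads between them is uncertain, and it had 1.37 and 1.41 CPM against 2.07 and 1.39 without passing. Its counts were 0.111 and 0.118 of those of Rpl37 in IP and 0.0936 and 0.0910 in input, again without overlap (exact permutation p = 0.333).

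Large and small subunit genes were then set side by side. Lower calls were made for 13 of 44 large subunit genes (29.55%) and 7 of 31 small subunit genes (22.58%), against 22.4% of all genes. The median log2 fold changes were -0.18 and -0.31. The difference between the medians, 0.14, fell to 0.075 with the GC and length correction. Counts of the large subunit were 1.64, 1.64, 1.40 and 1.45 times those of the small subunit in the IP libraries 2 and 4 and the input libraries 2 and 4. Without Rpl4 the ratios were 1.02, 1.01, 0.960 and 0.955. The IP ratios remained above both inputs, by a smaller margin (exact permutation p = 0.333, the smallest possible).

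The members are short, and among all genes the shortest transcripts, and also the longest, were more often lower than higher in IP. The median transcript length was 740 bases for the members and 2784.5 for all genes tested with a length. Of the 409 genes tested with transcripts of at most 600 bases, 125 were lower and 27 higher, with a median log2 fold change of -0.50. For the 31 members in that class, 8 were lower, none was higher and the median was -0.39. Between 600 and 1000 bases the median was -0.13 over 914 genes and -0.19 over 33 members. Between 1000 and 2000 bases it was 0.093 over 3407 genes and 0.16 over 16 members, of which 3 were higher and 2 lower. At the other end, of 661 genes with transcripts above 8000 bases, 260 were lower and 112 higher, with a median of -0.21, and no member was that long. Across members, Spearman's rho of log2 fold change with length was 0.347 and Pearson's r 0.247 (n = 82 genes that share the same 4 libraries). With the share of windows copied, rho was -0.325 and r -0.372 over the same 82. Over the 50 core genes averaging at least 5 CPM, rho was 0.331 with length and -0.0163 with the copied share. With GC content and length corrected for, 59 of the 82 members were above 0. Whether length or copied sequence had a part in the result was not tested.

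**Figure D5:**
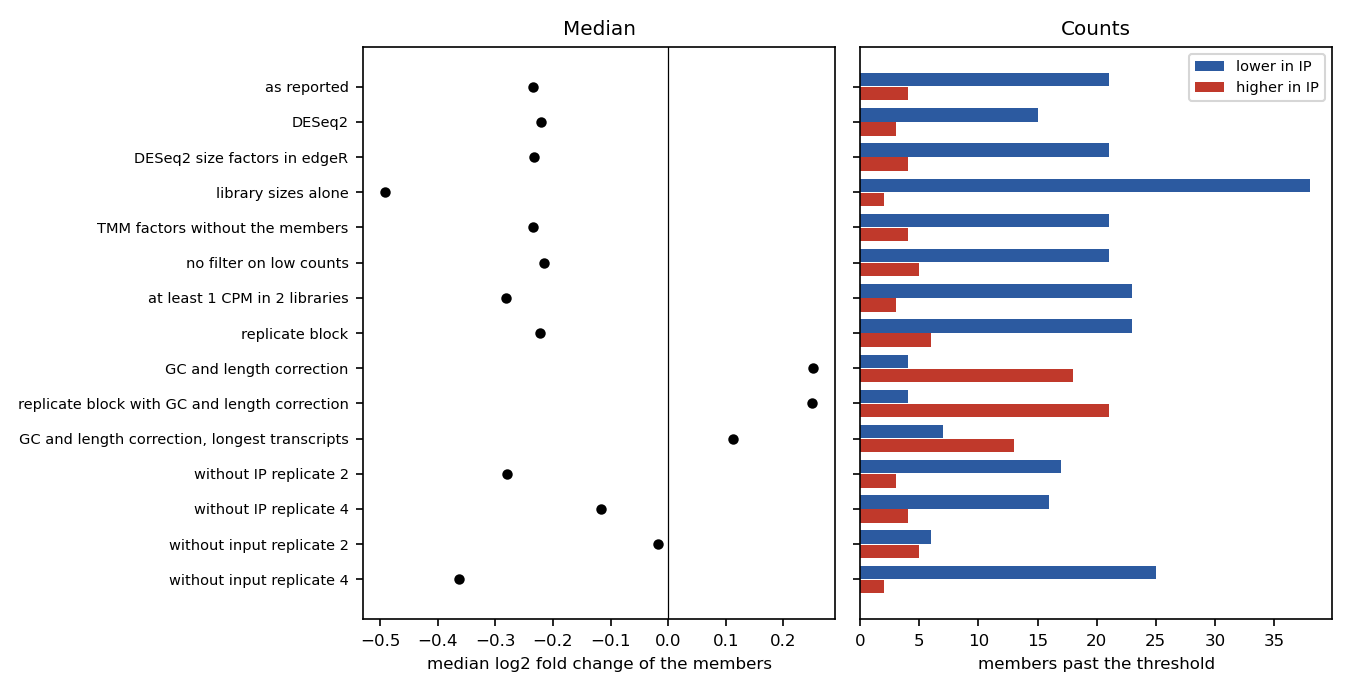
Median log2 fold change of the 82 members (left) and number of members called lower (blue bars) and higher (red bars) in IP (right) under each processing setting. The median is below 0 in every setting but the 3 that correct for GC content and length, and it is nearest to 0 without input replicate 2.

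What the members share beyond their names was read from the annotation. They lie on 19 chromosomes, with 14 on chromosome 7 and 4 on X. Small nucleolar RNAs, which guide the modification of ribosomal RNA, lie within the bodies of 30 members, 58 in all. Of these 30 hosts 9 were lower (30%) and 1 was higher (3.33%) in IP, with a median log2 fold change of -0.24. Of the 45 core genes that host none 11 were lower (24.4%) and 1 was higher (2.22%), with a median of -0.20. Over all genes tested 22.4% were lower and 23.4% higher. Rpl4 holds 5 and Rpl7a, Rps12 and Rpl5 hold 3 each. Exons of 22 members overlap another gene, 19 of them on the opposite strand. Of the 22, 6 were called lower, against 21 of all 82 members and 22.4% of all genes tested.

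Promoters of 61 members were matched by symbol in RefSeq (GRCm38.p6, 250 bases before and 50 from each annotated start). A run of at least 5 pyrimidines beginning with C at the annotated start, the form of the TOP motif, was found in 21.3% of the 61, against 3.01% of all 27025 symbols with a promoter. Allowing the run to begin within 5 bases of the annotated start raised this to 47.5% against 21.2%. No mitochondrial ribosomal protein gene of 69 had the run at the start. Among the core genes, the run at the start was present in 1 of 15 called lower and in 12 of 40 not called lower. With the wider search it was present in 6 of 15 and in 21 of 40. Annotated starts can differ from those used in cortex.

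Sequence around the start is shown for core genes with the run and high levels, then for Rpl7a and for 2 genes in which no such run begins within 5 bases of the start, Rpl10a and Rpl7l1. In Rpl10a a run of C lies farther before the start and ends ahead of it. Each line holds 20 bases before the start and 20 from it, on the gene's strand, with capitals for the whole stretch of pyrimidines that holds the run.
Rps15a chr7:118116128-118116167 (- strand): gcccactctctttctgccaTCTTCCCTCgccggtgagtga
Rplp2 chr7:141447631-141447670 (+ strand): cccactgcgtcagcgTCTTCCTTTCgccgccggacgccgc
Rpl14 chr9:120571497-120571536 (+ strand): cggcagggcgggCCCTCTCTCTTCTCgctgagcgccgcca
Rpl15 chr14:18270967-18271006 (- strand): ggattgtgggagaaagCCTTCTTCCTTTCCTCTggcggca
Rpl7a chr2:26910787-26910826 (+ strand): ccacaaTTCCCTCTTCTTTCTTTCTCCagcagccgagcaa
Rpl10a chr17:28328451-28328490 (+ strand): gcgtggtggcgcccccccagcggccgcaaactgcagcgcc
Rpl7l1 chr17:46782637-46782676 (- strand): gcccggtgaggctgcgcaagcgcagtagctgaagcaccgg

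Of these, Rps15a and Rpl7a were lower in IP, while Rplp2, Rpl14 and Rpl15 did not pass. Rpl14 had 29.1 and 28.9 CPM in IP against 26.6 and 21.8 (0.26 ± 0.13, adjusted p = 0.123), and Rpl15 had 31.0 and 26.1 against 22.3 and 23.4 (0.32 ± 0.13, adjusted p = 0.0577). Both had IP above both inputs. With the GC and length correction in edgeR, Rpl14 (0.50, adjusted p = 0.00191), Rpl15 (0.58, adjusted p = 0.000616) and Rplp2 (0.61, adjusted p = 0.000119) passed as higher. That correction called 18 of the 82 members higher and 4 lower. Other letters were searched on both strands of the promoters. CCGGAA, a core that ETS family factors bind, was in 54.1% of the members' promoters, 16.7% of all and 58.0% of those of mitochondrial ribosomal proteins. AAGATGGC, as bound by YY1, was in 9.84% of the members' promoters against 3.19% of all, CTCTTTCC in 14.8% against 3.57%, and TATAAA in 11.5% against 15.7%. In the promoters of mitochondrial ribosomal proteins the shares were 17.4%, 1.45% and 7.25% in that order, so AAGATGGC was more frequent there than in the members. A match is a description and not a site.

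Other genes of the translation machinery were counted in the same fit, which called 23.4% of all genes tested higher and 22.4% lower. That higher share was 28.1% among genes averaging 5 to 50 CPM and 43.9% among those averaging 50 to 500 CPM. Of 76 mitochondrial ribosomal protein genes tested, which serve the separate ribosome of mitochondria, 37 were higher in IP (48.7%) and 2 lower (2.63%). Their median log2 fold change was 0.36. Mrps31, the most changed of them, had 62.7 and 61.1 CPM in IP against 28.6 and 26.3 in input. Core cytosolic counts were 0.884 and 0.855 times the mitochondrial counts in IP and 1.26 and 1.15 times in input, a ratio that needs no scaling between libraries (exact permutation p = 0.333, the smallest possible). Chaperones of ribosomal proteins and factors of subunit assembly gave 16 higher (59.3%) and 3 lower (11.1%) of 27, with a median of 0.41. Among them Pes1 (1.43 ± 0.16) and Bop1 (1.23 ± 0.14), partners in a complex that matures the large subunit, were higher, and Mdn1 (-1.38 ± 0.12), an ATPase that acts on the same precursor, was lower.

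Of 17 other transcripts known to carry a TOP motif, not all of them mRNAs, 7 were higher (41.2%) and 4 lower (23.5%), with a median of 0.27. Over all genes 23.4% were higher and 22.4% lower, so the lower share was near that of all genes. Eef1a1, which delivers transfer RNA to the ribosome, had 324 and 339 CPM in IP against 231 and 207 in input (0.59 ± 0.093, adjusted p = 3.77e-05). Pabpc1, the poly(A)-binding protein, had 73.8 and 67.7 against 159 and 149 (-1.13 ± 0.099, adjusted p = 4.31e-08), Gas5 had 18.7 and 21.0 against 49.4 and 36.9, and Eif4b had 137 and 139 against 215 and 219. Of 14 genes of mTORC1 and Larp1 control, 3 were higher and 3 lower (21.4% each), near the shares of all genes. Tsc2 (0.61 ± 0.097) and Rptor (0.59 ± 0.11) were higher, and Eif4ebp2 (-0.78 ± 0.12) and Rps6kb1 (-0.38 ± 0.10) were lower. Ribosomal proteins named otherwise did not pass. Gnb2l1, also called Rack1, had 69.5 and 67.4 CPM against 60.2 and 56.3 (adjusted p = 0.0741).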

How the data were processed

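Members and gene lists were chosen with earlier results of these data known, and classes by role were written after the files were seen. Each library has 1 file of raw read counts by gene, deposited without normalisation. The submitters' processing notes name STAR 2.0.0e, HTSeq and mm10, per the labels. Annotation, strand setting and read length: not given in the sources used here. Lines that name no gene (no feature 7.31 to 14.9%, ambiguous 1.54 to 5.09%, no unique alignment 30.7 to 38% of records) entered neither library sizes nor tests.

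From these, IP was compared with input in edgeR 4.0.16 (R 4.3.3) with TMM factors, filterByExpr by group (minimum count 10, minimum total 15), the quasi-likelihood test without a block, and Benjamini-Hochberg adjustment over all 16600 genes tested, two-sided, at 0.05. CPM uses TMM-scaled library sizes. The method was tested on simulated data. Replicates differed by 21.2 (IP) and 14.5 (input) times the sampling noise (chi-square per degree of freedom).

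Lengths, GC content, positions and copies came from GENCODE vM21 (GRCm38, also called mm10), with the shortest principal coding transcript of each gene. Copies of 50-base windows (30 as an alternative) were searched in annotated transcripts, where a genome search had been planned. Promoters came from RefSeq. Pairs were aligned with Biopython 1.88, and exact permutation tests used scipy 1.17.1.

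Every member could be named. In full were given Rpl10a, the 8 highest and 8 lowest called members of at least 5 CPM, the 6 highest per kilobase and the paralog pairs, and from other lists up to 4 called genes of at least 5 CPM with the largest change. Members with fewer counts, Rplp1, Rplp2, Rpl14, Rpl15 and others were added for their role or call. Alternatives were DESeq2 1.42.0, its size factors, library sizes alone, TMM factors without the members, other filters, a replicate block, GC and length corrections, and leaving out each library. The correction with the longest transcripts and the transcript search were chosen after seeing the data. Some members and listed genes are not reported here by name.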

Additional observations from a re-analysis of the deposited data

How the results depend on the processing

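Members called lower in IP numbered 21, and 38 with library sizes alone, 4 with the GC and length correction (also together with a replicate block) and 7 with that correction from the longest transcripts. Members called higher numbered 4, and 2, 18, 21 (with the block) and 13 under those settings in the same order. Large subunit genes called lower numbered 13, and 8 with DESeq2, 20 with library sizes alone, 4 with the correction, with or without the block, and 5 with the longest transcripts. Small subunit genes called lower numbered 7, and 16, 0, 0 and 2 with library sizes alone, the correction, the correction with the block and the longest transcripts. The members' median of -0.23 became -0.49, 0.25, 0.25 and 0.11 in that order. That of the large subunit, -0.18, became -0.44, 0.23, 0.23 and 0.091. That of the small subunit, -0.31, became 0.16, 0.17 and 0.074 with the 3 corrections, and the difference between the subunits, 0.14, became 0.075, 0.059 and 0.017. The causes were not tested.

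Leaving out each library in turn gave 6 to 25 members lower and 2 to 5 higher, with medians from -0.36 to -0.018. Without input 2 the median of the large subunit was 0.028. The extremes were without input 2 (6 lower) and without input 4 (25 lower, 2 higher). Large subunit genes called lower ranged from 3 to 13 and small subunit genes from 3 to 12, and the difference between the subunits from 0.078 to 0.14. Of the 25 called members, 15 lost the call without input 2.

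Replicate numbers 2 and 4 are shared by the groups, and the labels do not say what they mark. The correlation of the differences between numbers was 0.040 over all genes, 0.19 over genes of at least 5 CPM and -0.087 over the members. Of the 54 members of at least 5 CPM, library 2 was above library 4 for 51 in input and 45 in IP. With 2 pairs and no statement in the labels, the numbers were not taken to pair the samples. With the replicate block alone, 23 members were lower and 6 higher, with a median of -0.22.

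Of the 21 members called lower, 4 were positive with the GC and length correction, namely Rpl22, Rpl30, Rps15a and Rpl37a (0.20). Single genes that changed direction included the following. With the GC and length correction, and with the block added, Rpl30 had 0.040 and 0.045, Rps15a 0.069 and 0.069, Rpl8 0.056 and 0.055, Rpl41 0.37 and 0.38, Rpl22 0.40 and 0.40, Rpl22l1 0.34 and 0.34, Rpl36a 0.21 and 0.20, Rpl39 0.32 and 0.33, Rps27 0.31 and 0.31, and Rps27l 0.28 and 0.27. With the longest transcripts Rpl41 had 0.18, Rpl22l1 0.32, Rpl36a 0.18, Rpl39 0.28, Rps27 0.24 and Rps27l 0.25. With library sizes alone Rpl4 had -0.074 and Rpl7 -0.027. Leaving out each library in turn, Rpl8 ranged from -0.21 to 0.019 (0.012 without IP 4), Rpl41 from -0.38 to 0.094 and Rpl39 from -0.47 to 0.037, each highest without input 2 and lowest without input 4. Rpl10a, Rpl7a, Rps4l and Rpl7l1 kept their calls in all 14 settings.

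Among the 5 members with under 10% of windows copied, 0 were lower and 0 higher. Without Rn45s the members' share of gene counts in IP was 0.183% instead of 0.170%. Depth limits the thinly counted genes: 16 members had fewer than 100 counts in every library.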
